A study of Homo sapiens with 6 samples.

Results

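The genes described here are those whose listed transcripts start between 61 and 74 Mb on chromosome 11 (GRCh37), a stretch of the proximal long arm that spans bands 11q12 to 11q13. The deposited table lists 680 transcripts of 220 genes in this window. The rule leaves out 14 of these genes, among them CCND1, leaving 206 members, with 626 transcripts, of 11797 genes in all. The rule itself uses position and gene names, but the window was proposed with the differences between the lines in view. Every count, median and fold change of the members between the lines is therefore a description, and none of them is evidence that the window differs.

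RNA was compared between 2B-NNK cells and BEAS-2B cells, with 3 libraries of each line. BEAS-2B cells are human airway epithelium made immortal, and are labelled wild type and untreated. 2B-NNK, also labelled wild type, is a transformed line raised from these cells by repeated exposure to the tobacco-specific nitrosamine NNK, at 100 mg/L for 24 h every 4 days to a total of 1 mg, and both lines grew in bronchial basal medium with 10% serum. Each line is a single one, so what exposure, transformation and longer culture each did cannot be told apart. Whether the 3 libraries of each line were grown separately is not stated, and p-values then describe only library-to-library spread, possibly technical.

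The window is dense in genes and rich in G and C. Its proximal end holds the fatty acid desaturase genes and the ferritin heavy chain, its middle holds the tumour suppressor MEN1, the NF-kB subunit RELA and the actin regulator CFL1, and its distal part holds the 11q13 amplicon. That amplicon is a stretch around CCND1 that is often gained in squamous cancers of the lung, head and neck and oesophagus, where FADD, PPFIA1 and CTTN are carried along with it. Genes that share such a copy-number change often shift together in RNA level, but no DNA was measured here, and the number of copies of the window in either line is not known.

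Promoters are shown for the 5 genes that passed the test between the lines and were matched in the RefSeq promoter set used. Of these, 4 rose and 1 fell in 2B-NNK. CLCF1, CST6 and LRRN4CL also passed but had no match in that set. Each printed stretch runs from 250 bases before to 50 bases after the gene start in RefSeq (GRCh38.p14). Capitals mark matches on either strand to the GC box CCGCCC or the E-box CACGTG. That start need not be the start of the transcripts that carry the values. TMEM138-202 and FOLR3-206, the most abundant of their genes, start at 61133175 and 71825915 (GRCh37). The printed stretches lie nearer to the other listed transcripts of these genes. TMEM138-201 and TMEM138-209 start at 61129473 and 61129833, and FOLR3-201 and FOLR3-204 at 71846989 and 71846798. The BATF2 stretch lies inside BATF2-201, its only listed transcript, and not at its start. TMEM138 lies at chr11:61362124-61362423 on the plus strand, MACROD1 at chr11:64166064-64166363 on the minus strand, BATF2 at chr11:64990228-64990527 on the minus strand, UCP2 at chr11:73983153-73983452 on the minus strand and FOLR3 at chr11:72135475-72135774 on the plus strand.
TMEM138: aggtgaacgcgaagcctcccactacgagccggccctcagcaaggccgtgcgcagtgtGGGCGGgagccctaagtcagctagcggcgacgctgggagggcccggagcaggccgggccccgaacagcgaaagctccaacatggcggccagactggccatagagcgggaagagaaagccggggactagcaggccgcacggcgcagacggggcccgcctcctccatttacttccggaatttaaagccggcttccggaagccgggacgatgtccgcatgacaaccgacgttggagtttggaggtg
MACROD1: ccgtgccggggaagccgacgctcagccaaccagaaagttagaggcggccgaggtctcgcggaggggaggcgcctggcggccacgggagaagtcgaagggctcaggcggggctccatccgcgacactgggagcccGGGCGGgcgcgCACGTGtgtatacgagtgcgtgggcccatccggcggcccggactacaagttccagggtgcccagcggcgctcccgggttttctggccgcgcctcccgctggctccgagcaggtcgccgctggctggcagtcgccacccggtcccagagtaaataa
BATF2: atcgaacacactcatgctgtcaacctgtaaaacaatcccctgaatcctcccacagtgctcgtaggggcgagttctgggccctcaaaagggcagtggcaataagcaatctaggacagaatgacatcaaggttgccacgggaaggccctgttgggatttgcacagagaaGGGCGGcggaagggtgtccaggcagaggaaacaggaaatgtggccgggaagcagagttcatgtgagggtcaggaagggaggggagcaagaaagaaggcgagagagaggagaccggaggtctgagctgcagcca
UCP2: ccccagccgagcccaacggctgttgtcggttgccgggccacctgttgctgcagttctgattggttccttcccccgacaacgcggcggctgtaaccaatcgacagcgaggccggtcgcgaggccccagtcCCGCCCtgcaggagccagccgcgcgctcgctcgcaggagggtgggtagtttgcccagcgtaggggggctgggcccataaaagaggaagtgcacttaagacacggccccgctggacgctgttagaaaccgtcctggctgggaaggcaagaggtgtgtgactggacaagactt
FOLR3: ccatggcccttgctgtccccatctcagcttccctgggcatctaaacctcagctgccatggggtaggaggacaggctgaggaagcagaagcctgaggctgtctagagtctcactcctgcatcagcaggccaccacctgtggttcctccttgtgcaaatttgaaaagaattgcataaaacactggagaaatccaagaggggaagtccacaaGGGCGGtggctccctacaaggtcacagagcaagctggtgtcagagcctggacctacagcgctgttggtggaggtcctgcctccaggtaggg

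The promoters of TMEM138, MACROD1 and UCP2 had a GC content of 66.0, 71.0 and 64.7% and held 30, 36 and 24 CpG dinucleotides. Those of BATF2, which rose, and FOLR3, which fell, had 55.7 and 56.3% and held 9 and 2 CpG dinucleotides. Each of the 5 held 1 GC box, and MACROD1 also held 1 E-box. A RefSeq promoter was matched for 170 of the 206 members, 9 of them by a synonym. A GC box was present in 76.5% of these promoters, against 58.5% of 15840 promoters of protein-coding genes, and their median GC content was 67.3% against 62.7%. The TATA box TATAAA was present in 2.35% of the members' promoters, against 9.63% of all, the E-box in 6.47%, against 8.88%, and the AP-1 site TGANTCA in 4.71%, against 5.75%. A match of letters is a description of the window searched and says nothing of binding.

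Levels are given in FPKM, which scales fragments by transcript length and by the size of the library, summed over the listed transcripts of a gene. The 3 libraries of 2B-NNK summed to between 351423 and 376513 FPKM, and those of BEAS-2B to between 342274 and 383040 FPKM. The number of reads behind the values is unknown. Among markers of the labelled epithelial cell type, KRT8, KRT18, KRT7, KRT19, EPCAM and KRT17 were in the table and summed to 527 to 558 FPKM in 2B-NNK and 461 to 981 FPKM in BEAS-2B, while CDH1 and KRT5 were not among the listed genes. Of 7 fibroblast markers COL1A1 and PDGFRB were listed, summing to 201 to 327 FPKM in 2B-NNK and 93.1 to 101.2 FPKM in BEAS-2B. Of 5 leukocyte markers CD68 was listed, at 2.70 to 6.30 FPKM in 2B-NNK and 0.828 to 3.08 FPKM in BEAS-2B, and of 4 endothelial markers CDH5, at 0.31 to 1.38 FPKM in 2B-NNK and 0.129 to 0.251 FPKM in BEAS-2B. Of 5 markers of ciliated or secretory airway cells TPPP3 was listed, at 2.02 to 2.66 FPKM in 2B-NNK and 0 to 0.102 FPKM in BEAS-2B. In bulk RNA, fewer cells of a type and less RNA per cell cannot be told apart, and the part of these markers in the results below was not tested.

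The members spanned a wide range of abundance. The mean over the 6 libraries was at least 100 FPKM for 11 genes, between 10 and 100 FPKM for 91, between 1 and 10 FPKM for 83 and under 1 FPKM for 21, with a median of 9.89 FPKM. The most abundant was FTH1, the ferritin heavy chain that stores iron, at 1234, 1248 and 2042 FPKM in 2B-NNK and 793, 821 and 1330 FPKM in BEAS-2B. Its groups overlapped because BEAS-2B replicate 3 lay above 2 of the 2B-NNK libraries, and its log2 difference of 0.62 (SE 0.31) missed the test's threshold (limma, adjusted p = 0.315). CFL1, cofilin, which severs actin filaments, followed at 706, 655 and 761 FPKM in 2B-NNK and 822, 901 and 1260 FPKM in BEAS-2B. All 3 of its 2B-NNK libraries lay below those of BEAS-2B, with a log2 difference of -0.47 (SE 0.23) that did not pass (limma, adjusted p = 0.301). The peroxidase PRDX5 averaged 446 ± 115 FPKM in 2B-NNK and 307 ± 82.2 FPKM in BEAS-2B, and FAU, which encodes a ribosomal protein fused to a ubiquitin-like one, 236 ± 64.6 FPKM in 2B-NNK and 263 ± 91.8 FPKM in BEAS-2B (SD, n = 3). DRAP1, a repressor of transcription initiation, averaged 189 ± 14.6 FPKM in 2B-NNK and 281 ± 69.9 FPKM in BEAS-2B (SD, n = 3). None of these 5 passed the test as deposited. FTH1, CFL1 and FAU have processed pseudogenes elsewhere, which could take or lend reads.

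Of the 206 members, 200 had at least 0.5 FPKM in at least 3 libraries and were tested, as log2(FPKM + 1). On that scale folds of weakly expressed genes come out too small. BBS1, FAM86C1, LRTOMT, PLEKHB1, PTPRCAP and AP002748.4 were not. The test, limma with Benjamini-Hochberg adjustment over all 11423 tested genes, called 5 members higher and 3 lower in 2B-NNK at an adjusted p under 0.05. Over all tested genes 3.48% were called higher and 1.16% lower. The members' shares were 2.5 and 1.5%, and those of the 439 tested genes on the rest of chromosome 11 were 2.05 and 2.28%. At an unadjusted p under 0.05, 26 of the 200 members were higher and 15, or 7.5%, lower, against 14.1 and 6.5% of all tested genes. In both directions together 8 members, or 4.0%, were called, against 4.64% of all tested genes and 4.33% of the rest of chromosome 11. A difference of at least 1 log2 unit, called or not, was seen in 11 members upward and 5 downward, or 8.0%, against 8.69% of all tested genes. In the authors' deposited table, none (0) of the 626 transcripts of members had a q-value under 0.05, and 44 of all 29656 did, whereas the test used here summed transcripts per gene.

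**Figure D1:**
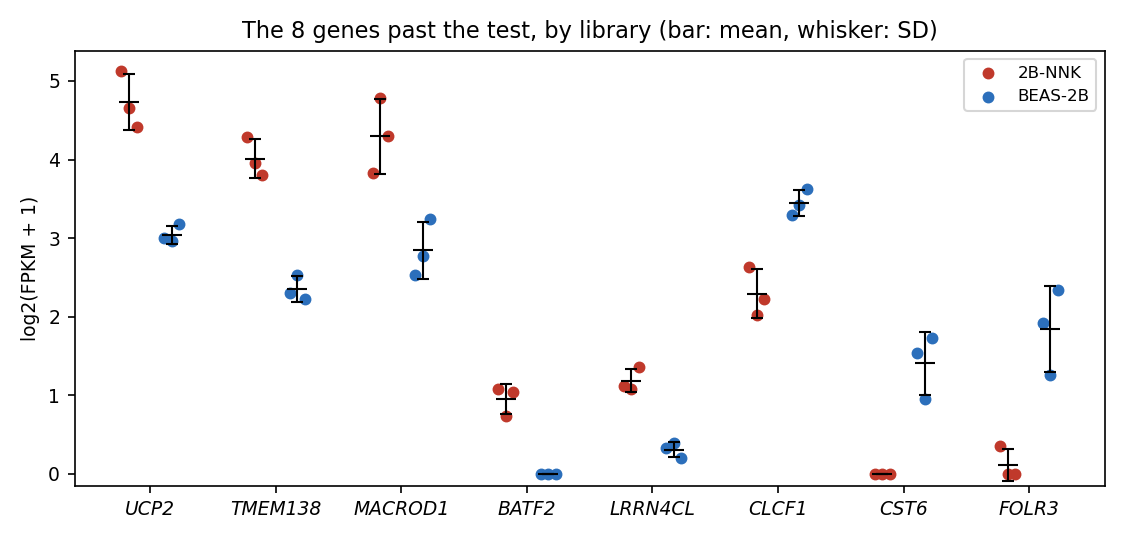
Level of the 8 called genes as log2(FPKM + 1) in each library (points), with 2B-NNK in red to the left of BEAS-2B in blue, the mean (bar) and the SD (whisker). The genes were picked by the test between the lines, and the groups do not overlap for any of the 8. BATF2, LRRN4CL, CST6 and FOLR3 passed the filter only through 1 line and so had to differ. Over all tested genes 2B-NNK lay above without overlap for 18.4% and below for 9.02%. BATF2 in BEAS-2B and CST6 in 2B-NNK are listed at 0 in all 3 libraries.

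The 2 largest rises past the test lay at opposite ends of the window. UCP2, a carrier of the inner mitochondrial membrane known as an uncoupling protein, stood at 33.9, 24.2 and 20.4 FPKM in 2B-NNK and 6.99, 6.77 and 8.02 FPKM in BEAS-2B. Every 2B-NNK library was above every BEAS-2B library, and the log2 difference was 1.69 (SE 0.23; limma, adjusted p = 0.0133). The gene spans 73685712 to 73694352 on the minus strand and summed 4 listed transcripts. UCP2-201 averaged 13.4 ± 6.14 FPKM in 2B-NNK and 5.19 ± 1.49 FPKM in BEAS-2B (SD, n = 3). UCP2-202 was listed at 18.7, 15.7 and 0 FPKM in 2B-NNK and at 0 in the 3 BEAS-2B libraries. UCP2-208 went the other way, at 0.656 ± 0.355 FPKM in 2B-NNK and 2.07 ± 0.835 FPKM in BEAS-2B (SD, n = 3), so the rise was that of the sum and not of each transcript. The next listed gene, UCP3, a relative of UCP2, had 0.679 ± 0.123 FPKM in 2B-NNK and 0.284 ± 0.0902 FPKM in BEAS-2B (SD, n = 3), a log2 difference of 0.39 that did not pass (limma, adjusted p = 0.205).

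TMEM138, a membrane protein needed for cilia, stood at 18.4, 14.5 and 12.9 FPKM in 2B-NNK and 3.94, 4.80 and 3.66 FPKM in BEAS-2B. The lowest 2B-NNK library was well above the highest BEAS-2B library, and the log2 difference was 1.66 (SE 0.21; limma, adjusted p = 0.0122). The gene spans 61129473 to 61136981 on the plus strand. TMEM138-202 carried most of the difference, at 12.4 ± 4.62 FPKM in 2B-NNK and 2.02 ± 1.01 FPKM in BEAS-2B (SD, n = 3), while TMEM138-201 stood at 2.00 ± 2.37 FPKM in 2B-NNK and 1.61 ± 0.588 FPKM in BEAS-2B (SD, n = 3). The gene after it, TMEM216, also needed for cilia, had 3.75 ± 1.27 FPKM in 2B-NNK and 4.23 ± 1.26 FPKM in BEAS-2B (SD, n = 3), and its log2 difference of -0.15 did not pass (limma, adjusted p = 0.822). The gene before it, CYB561A3, lies on the other strand and overlaps its start. Its log2 difference was 0.57 (limma, adjusted p = 0.453).

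MACROD1, an enzyme that removes ADP-ribose from proteins, stood at 13.2, 26.4 and 18.6 FPKM in 2B-NNK and 4.75, 5.84 and 8.44 FPKM in BEAS-2B. Its log2 difference was 1.45 (SE 0.31; limma, adjusted p = 0.0481). It spans 63766030 to 63933533 on the minus strand, where its end overlaps OTUB1 on the plus strand. OTUB1, a deubiquitinase, had a log2 difference of 0.69 that did not pass (limma, adjusted p = 0.507). The library kit was a stranded one, but whether counting used strand is not given in the sources used here, so reads of overlapping genes on opposite strands may not be separated. On the other side, STIP1, a co-chaperone of HSP70 and HSP90, averaged 69.3 ± 17.6 FPKM in 2B-NNK and 111 ± 13.2 FPKM in BEAS-2B (SD, n = 3), with a log2 difference of -0.70 that did not pass (limma, adjusted p = 0.143).

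CLCF1, a cytokine of the interleukin-6 family, was the fall with the highest level. It stood at 5.18, 3.06 and 3.68 FPKM in 2B-NNK and 8.77, 9.71 and 11.3 FPKM in BEAS-2B, with no overlap. Its log2 difference was -1.15 (SE 0.24; limma, adjusted p = 0.0414). It spans 67131639 to 67141208 on the minus strand and overlaps a listed entry on the same strand, AP003419.2, so the split of reads between them is uncertain. That entry had a log2 difference of -0.41 (limma, adjusted p = 0.593).

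The other 4 called genes were near silent in 1 line. They were among 6 tested members, and 232 tested genes in all, that stayed under 0.5 FPKM in all 3 libraries of a line. Such genes passed the filter only through the line where they are high, so they had to differ. BATF2, an interferon-inducible transcription factor, was listed at 1.12, 0.669 and 1.06 FPKM in 2B-NNK and at 0 in the 3 BEAS-2B libraries. LRRN4CL, a leucine-rich repeat membrane protein, was at 1.18, 1.12 and 1.56 FPKM in 2B-NNK and 0.253, 0.31 and 0.149 FPKM in BEAS-2B. Both were thus higher in 2B-NNK, with log2 differences of 0.96 (SE 0.16; limma, adjusted p = 0.0234) and 0.88 (SE 0.16; limma, adjusted p = 0.0335). CST6, an inhibitor of cysteine proteases, was listed at 0 in the 3 2B-NNK libraries and at 1.90, 0.942 and 2.32 FPKM in BEAS-2B. FOLR3, a secreted folate receptor, was listed at 0.275, 0 and 0 FPKM in 2B-NNK and 2.79, 1.39 and 4.05 FPKM in BEAS-2B. Both were thus lower in 2B-NNK, with log2 differences of -1.41 (SE 0.23; limma, adjusted p = 0.0224) and -1.72 (SE 0.30; limma, adjusted p = 0.0276). An exact 0 can be a failed estimate, and FOLR3 has close copies among the folate receptors, so its assignment of reads is uncertain.

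None of these calls held without each library in turn. MACROD1 and CLCF1 were lost without any 1 of the 6 libraries, with limma adjusted p of 0.0634 to 0.176 and of 0.0663 to 0.18. TMEM138 was lost without 2B-NNK replicate 2, 2B-NNK replicate 3 or BEAS-2B replicate 2, with an adjusted p of 0.043 to 0.0735 over the 6 fits. UCP2 was lost without 2B-NNK replicate 2 or 3 or BEAS-2B replicate 1 or 2, with an adjusted p of 0.044 to 0.0761. BATF2 and LRRN4CL could be tested only without a BEAS-2B library, and CST6 and FOLR3 only without a 2B-NNK library. Each of these 4 was lost in its 3 fits, at adjusted p of 0.0603 to 0.11, 0.0797 to 0.122, 0.0751 to 0.125 and 0.067 to 0.133. The log2 differences kept their sign in these fits. With the most abundant transcript of each gene alone, BATF2 was the only member of the 8 called (limma, adjusted p = 0.0425). BATF2, LRRN4CL, MACROD1, CST6 and CLCF1 have 1 listed transcript each, so their log2 differences were unchanged. Their adjusted p moved only through the fit over all genes, in which 179 were called, against 530 as deposited. UCP2 then had a log2 difference of 1.15 (limma, adjusted p = 0.265) and TMEM138 one of 2.14 (limma, adjusted p = 0.0631). MACROD1 was also lost with a pseudocount of 0.1, with no filter, with a filter at 5 FPKM, after quantile normalization and with library medians equalised, at limma adjusted p of 0.0517 to 0.0918. LRRN4CL was lost with that pseudocount and after quantile normalization (limma, adjusted p = 0.0502 and 0.0652), and CLCF1 with a filter at 5 FPKM (limma, adjusted p = 0.0502).

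The 2 Mb bins of the window were compared to see whether its genes shifted as a block. Called genes were spread over 6 of the 7 bins. The bin from 61 to 63 Mb had a median log2 difference of 0.16 over 44 tested genes, 29 of them positive. The next bin, from 63 to 65 Mb, had a median of 0.08 (44 genes), and that from 65 to 67 Mb a median of 0.02 (56 genes). From 67 to 69 Mb the median was -0.09, with 11 of 28 genes positive. The 4 genes from 69 to 71 Mb, ORAOV1, FADD, PPFIA1 and CTTN, had differences of -0.36, -0.24, 0.01 and -0.54. From 71 to 73 Mb the median was 0.03 (13 genes), and from 73 to 74 Mb it was -0.12 (11 genes). The medians of the 6 bins with at least 10 genes thus lay between -0.12 and 0.16. Those of the 20 bins with at least 10 genes elsewhere on chromosome 11 lay between -0.62 and 0.35. Each of the 6 bins of the window fell within that range. The bins elsewhere held 10 to 34 genes and those of the window 11 to 56. Medians over fewer genes scatter more, so this comparison is only a description. The medians of the bins from 63, 65 and 71 Mb turned negative, to between -0.09 and -0.01, after quantile normalization or with library medians equalised.

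**Figure D2:**
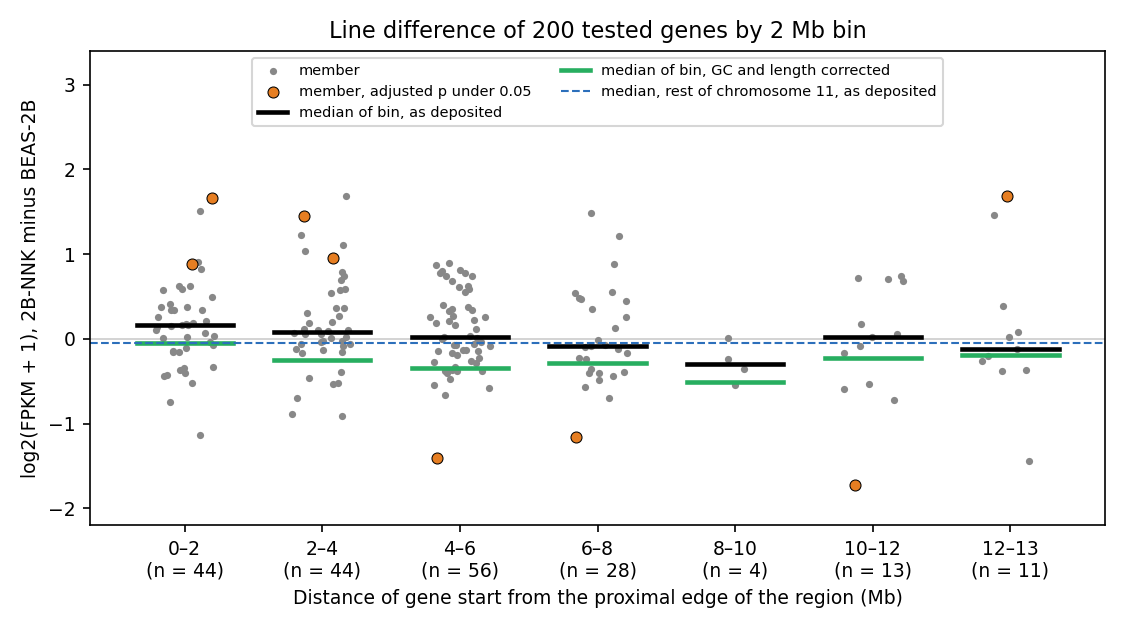
Difference in log2(FPKM + 1), 2B-NNK minus BEAS-2B, of each tested gene (points, called genes in orange) by distance of its start from the proximal edge of the window, in Mb, with the median of each bin as deposited (black) and after correction for GC content and length (green), and the median of the rest of chromosome 11 (dashed line). The black medians lie between -0.30 and 0.16 and the green ones are lower in each bin.

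Over the whole window the median log2 difference was 0.03 (quartiles -0.24 and 0.40), with 109 of 200 genes, or 54.5%, positive. It was -0.05 on the rest of chromosome 11, with 44.9% positive, and 0.07 over all tested genes, with 55.8% positive. Chromosome medians ran from -0.20 on chromosome 18 to 0.32 on chromosome 16. The 103 tested members on the plus strand had a median of 0.03 and the 97 on the minus strand also of 0.03. All 3 2B-NNK libraries lay above all 3 BEAS-2B libraries for 29 members, or 14.5%, against 18.4% of all tested genes. They lay below for 25 members, or 12.5%, against 9.02% of all tested genes and 13.2% of the rest of chromosome 11.

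The level of the window in each library was taken as the median deviation of its genes from their mean over the 6 libraries. It was 0.06, 0.09 and -0.03 in 2B-NNK and -0.05, -0.14 and 0.10 in BEAS-2B. The groups overlapped, since BEAS-2B replicate 3 was the highest of all 6. The mean was 0.04 ± 0.06 in 2B-NNK and -0.03 ± 0.12 in BEAS-2B (SD, n = 3), so the lines differed by less than the SD among the BEAS-2B libraries. Without BEAS-2B replicate 3 the median log2 difference of the window was 0.14, and that of the rest of chromosome 11 was -0.11.

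The most abundant listed transcripts of the tested members had a median GC content of 59.6%, against 48.7% on the rest of chromosome 11 and 49.0% over all tested genes. Of the members, 62.5% fell in the most GC-rich of 4 equal classes of all genes, above 57.5% GC. In that class the median log2 difference was 0.10 for the members, 0.23 for the rest of chromosome 11 and 0.34 for all tested genes. In the class below it, from 49.0 to 57.5% GC, it was 0.02 for the members and 0.12 for all tested genes. Only 4 and 8 members lay in the lower classes. Across all tested genes, which share each library's depth and composition, Spearman's rho between GC content and a library's deviation was 0.13, 0.34 and 0.09 in 2B-NNK and -0.43, -0.30 and 0.18 in BEAS-2B. Over the 200 members it was 0.07, 0.10 and 0.05 in 2B-NNK and -0.24, -0.14 and 0.14 in BEAS-2B.

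After a correction of each library for GC content and transcript length, the median log2 difference of the window was -0.23, that of the rest of chromosome 11 was -0.15 and that of all tested genes was -0.01. The window's level was then -0.10, -0.06 and -0.10 in 2B-NNK and 0.10, 0.07 and 0.15 in BEAS-2B. All 3 2B-NNK libraries now lay below those of BEAS-2B, as they also did on the rest of chromosome 11. The medians of the 6 larger bins ran from -0.34 to -0.05. The window's median also turned negative, to -0.05 after quantile normalization and -0.07 with library medians equalised, where that of all tested genes was -0.03 and -0.02. Which of these values is nearer to the RNA levels was not tested.

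The correction also changed which members were called. It called 2 higher and 10 lower, or 1.0 and 5.0%, against 2.46 and 1.93% of all genes and 1.59 and 3.87% of the rest of chromosome 11. The 12 calls together were 6.0% of members, against 4.39% of all genes and 5.47% of the rest of chromosome 11. The 5 calls shared with the uncorrected values were UCP2, TMEM138, CLCF1, CST6 and FOLR3. MACROD1, BATF2 and LRRN4CL did not pass (limma, adjusted p = 0.0667, 0.0609 and 0.0768). The 7 genes called only after the correction were all lower in 2B-NNK. PPP1R14B, an inhibitor of protein phosphatase 1, was the most abundant after DRAP1. It stood at 104, 110 and 100.3 FPKM in 2B-NNK and 151, 226 and 214 FPKM in BEAS-2B, without overlap. Its log2 difference was -0.88 as deposited (limma, adjusted p = 0.0645) and -1.53 after the correction (limma, adjusted p = 0.0186). RELT, a receptor of the TNF receptor family, stood at 1.38, 0.234 and 1.495 FPKM in 2B-NNK and 3.93, 4.36 and 4.49 FPKM in BEAS-2B, with a log2 difference of -1.44 as deposited (limma, adjusted p = 0.0506). The others were DRAP1, WDR74, which acts in ribosome assembly, ANAPC15, a subunit of the anaphase-promoting complex, LRFN4 and C11orf68, with corrected log2 differences between -1.04 and -0.77. The direction of DRAP1 rested on the sum of its transcripts, since its most abundant transcript alone had an uncorrected log2 difference of 0.64 (limma, adjusted p = 0.423), against -0.54 for the sum.

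The members were then grouped by the role of their products in 10 lists, which hold 154 of the tested members. Over all tested genes 3.48% were called higher and 1.16% lower, the shares beside which calls in a list are read. At an unadjusted p under 0.05 (limma) these shares were 14.1 and 6.5%. Genes of lipid and energy metabolism had 1 of 19 tested members higher, UCP2, and 0 lower, with a median log2 difference of 0.34, against 0.07 over all tested genes. Within the list the desaturase FADS1, which makes polyunsaturated fatty acids, averaged 39.8 ± 13.4 FPKM in 2B-NNK and 31.1 ± 10.4 FPKM in BEAS-2B (SD, n = 3). FADS2, on the other strand, averaged 39.1 ± 18.7 FPKM in 2B-NNK and 29.5 ± 8.40 FPKM in BEAS-2B (SD, n = 3). FADS1 lies within the listed span of FADS2, so reads of both may not be separated. Their groups overlapped, and neither passed (limma, adjusted p = 0.598 and 0.641). FADS3 had a log2 difference of -0.15, and ESRRA, the lowest of the list, one of -0.46. STARD10, a lipid transfer protein, had 18.4 ± 0.876 FPKM in 2B-NNK and 11.1 ± 0.947 FPKM in BEAS-2B (SD, n = 3), with no overlap, and did not pass (log2 difference 0.69; limma, adjusted p = 0.0766). Its difference after the correction was 0.20. The list's median after the correction was 0.08.

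Genes of redox, iron and protein stress had 1 of 16 tested members higher, MACROD1, and 0 lower, with a median of 0.42. At an unadjusted p under 0.05 (limma), 1 was higher and 2 lower. The 2B-NNK libraries lay above those of BEAS-2B for 1 member and below for 3, against 18.4 and 9.02% of all tested genes. In immune and death signalling 1 of 12 was higher, BATF2, and 0 lower, with a median of 0.48. BATF2 was listed at 0 in BEAS-2B and so had to differ. At an unadjusted p under 0.05 (limma), 4 of this list were higher and 1 lower. MAP4K2, a kinase upstream of JNK signalling, had 4.596 ± 0.277 FPKM in 2B-NNK and 1.501 ± 0.94 FPKM in BEAS-2B (SD, n = 3), a log2 difference of 1.22 that did not pass (limma, adjusted p = 0.0676). RELA, the p65 subunit of NF-kB, had 13.9 ± 1.77 FPKM in 2B-NNK and 14.6 ± 2.05 FPKM in BEAS-2B (SD, n = 3). The secretory pathway and vesicle list had 1 of 30 higher, TMEM138, and 0 lower, with 4 higher and 0 lower at an unadjusted p under 0.05 (limma). Its median was 0.22. After the correction the medians of these 3 lists were -0.06, -0.05 and -0.08, so their sign turned.

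In the list of secreted factors, matrix and proteases, 0 of 10 tested members were called higher and 2 lower, CST6 and CLCF1. CST6 was listed at 0 in 2B-NNK and so had to differ, in this and the following counts. Over all tested genes 3.48 and 1.16% were called. At an unadjusted p under 0.05 (limma), 4 of the list were higher and 2 lower, against 14.1 and 6.5% of all tested genes. The 2B-NNK libraries lay above those of BEAS-2B for 5 members and below for 2, against 18.4 and 9.02% of all tested genes. The list's median was 0.11, or -0.22 after the correction and -0.002 after quantile normalization. P4HA3, which hydroxylates proline in collagen, was listed at 3.95, 5.89 and 3.72 FPKM in 2B-NNK and at 0, 1.85 and 1.70 FPKM in BEAS-2B, with no overlap. Its log2 difference of 1.46 did not pass (limma, adjusted p = 0.12). It is also the member nearest the distal edge of the window. PGM2L1, the next gene beyond the edge, had 1.84 ± 0.0896 FPKM in 2B-NNK and 0.879 ± 0.0595 FPKM in BEAS-2B (SD, n = 3), a log2 difference of 0.60. At the proximal edge DDB1, an adaptor subunit of a ubiquitin ligase, was the first member, with a log2 difference of -0.40, and VPS37C, a trafficking gene just outside, had -0.11.

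The chromatin and transcription list had 1 of 17 tested members higher, BATF2, and 0 lower, with a median of -0.14. Its 2B-NNK libraries lay below those of BEAS-2B for 6 members and above for 2. BATF2, listed at 0 in BEAS-2B, had to differ and is among the 2 above. That was 6 and 2 of 17, beside the 9.02 and 18.4% of all tested genes. KMT5B, a histone H4 methyltransferase, had 5.66, 5.62 and 5.03 FPKM in 2B-NNK and 11.3, 10.0 and 7.41 FPKM in BEAS-2B, and its log2 difference of -0.70 did not pass (limma, adjusted p = 0.128). MEN1, which encodes menin, had 16.6 ± 5.68 FPKM in 2B-NNK and 16.4 ± 0.82 FPKM in BEAS-2B (SD, n = 3). In the list of RNA processing and translation 0 of 20 were higher and 0 lower (limma), with 0 higher and 3 lower at an unadjusted p under 0.05, against 14.1 and 6.5% of all tested genes, and a median of -0.13. After the correction the medians of these 2 lists were -0.37 and -0.39.

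In the list of the actin and membrane cytoskeleton 0 of 21 tested members passed (limma), with 1 higher and 2 lower at an unadjusted p under 0.05 and a median of -0.09. AHNAK, a giant scaffold protein below the plasma membrane, stood at 30.5, 14.95 and 28.6 FPKM in 2B-NNK and 50.1, 59.0 and 49.9 FPKM in BEAS-2B. Its groups did not overlap, and its log2 difference of -1.13 (SE 0.29) did not pass (limma, adjusted p = 0.0782). Genes of replication, repair and cell division had 0 of 17 tested members past the test (limma), with 1 higher and 0 lower at an unadjusted p under 0.05 and a median of 0.07. PPP1CA, a catalytic subunit of protein phosphatase 1, was the most abundant of them, with 127, 68.6 and 81.0 FPKM in 2B-NNK and 115, 117 and 24.7 FPKM in BEAS-2B. BEAS-2B replicate 3 was the lowest of its 6 libraries. After the correction the medians of these 2 lists were -0.35 and -0.003, and that of the second was -0.03 after quantile normalization or with library medians equalised.

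**Figure D3:**
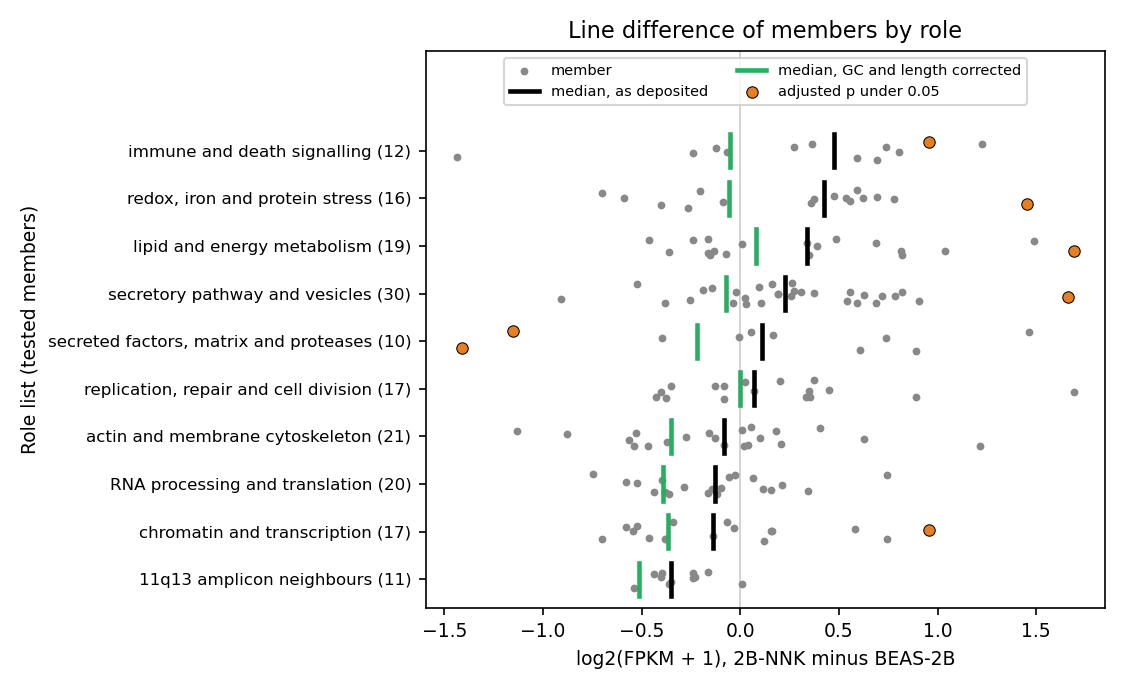
Difference in log2(FPKM + 1), 2B-NNK minus BEAS-2B, of the tested members of 10 role lists (points, number tested in brackets), with called genes in orange and the median of each list as deposited (black) and after correction for GC content and length (green). The black medians run from -0.35 for the amplicon neighbours to 0.48 for immune and death signalling, and every green median lies below its black one.

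The neighbours of CCND1 in the 11q13 amplicon were then taken as a group. Of 11 tested members 0 passed the test in either direction (limma), also at an unadjusted p under 0.05. Of the 11 log2 differences 10 were negative, and the median was -0.35, against 0.07 over all tested genes. Over all tested genes 55.8% were positive, and on the rest of chromosome 11 44.9%. Elsewhere on the chromosome, the bin from 85 to 87 Mb had a median of -0.62, with 0 of 10 genes positive. CTTN, cortactin, which binds branched actin, stood at 31.5, 33.4 and 26.3 FPKM in 2B-NNK and 47.3, 56.5 and 32.8 FPKM in BEAS-2B. The groups overlapped only through BEAS-2B replicate 3, and the log2 difference was -0.54 (SE 0.24; limma, adjusted p = 0.264). FADD, the adaptor of death receptors, had 16.9 ± 1.07 FPKM in 2B-NNK and 20.2 ± 2.38 FPKM in BEAS-2B, and PPFIA1, a scaffold of focal adhesions, 8.69 ± 3.71 FPKM in 2B-NNK and 8.22 ± 2.06 FPKM in BEAS-2B (SD, n = 3). ORAOV1, named for its overexpression in oral cancer, had 3.69 ± 1.87 FPKM in 2B-NNK and 4.75 ± 1.34 FPKM in BEAS-2B (SD, n = 3). LRP5, a Wnt co-receptor, was the 1 of the 11 whose groups did not overlap, at 9.58, 9.18 and 8.26 FPKM in 2B-NNK and 10.96, 10.98 and 10.5 FPKM in BEAS-2B, with a log2 difference of -0.24 (limma, adjusted p = 0.491). All 3 2B-NNK libraries lay below all 3 BEAS-2B libraries for 9.02% of all tested genes, and above for 18.4%. After the correction all 11 differences were negative, with a median of -0.52. The fibroblast growth factors FGF3, FGF4 and FGF19 and the chloride channel ANO1 were not among the listed genes, and CCND1 itself was left out by the rule.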

How the data were processed

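RNA from 3 libraries each of 2B-NNK and BEAS-2B cells was extracted with TRIzol and made into stranded libraries, per the labels' protocols. The submitters' processing notes name HISAT2 2.1.0, cutadapt 1.17 and GRCh37 but not what each did. The program that assigned reads to transcripts is not given in the sources used here. Deposited by the authors were an FPKM value per transcript and library, group means on the log2 scale, a log2 fold change, a fold ratio, a p-value and a q-value. The group means deposited as FPKM hold means of log2(FPKM + 1) and were not used. Low FPKM values showed no steps of whole reads (highest periodicity 0.13, against 0.12 after random stretching, where 1 is perfect), so depth is unknown and no counting interval is given.

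FPKM was summed per gene and filtered at 0.5 FPKM in at least 3 of 6 libraries. The model, with the line as its only term and a prior both trended and robust, used limma 3.58.1 (R 4.3.3) and was fitted to log2(FPKM + 1) over all 11423 tested genes, with Benjamini-Hochberg adjustment at 0.05. Differences are 2B-NNK minus BEAS-2B. With 3 against 3 libraries an exact permutation test cannot go below a p of 0.1, so none is given. The GC and length correction subtracts from each library a loess surface (span 0.3) on GC content and log2 length of the most abundant listed transcript, from GENCODE 29, which held 99.6% of transcripts. Gene coordinates are those of the table on GRCh37, and promoters are on GRCh38.p14. On simulated libraries of 11423 genes with 100 planted changes of each size, 7% of those of 1 log2 unit and 90% of those of 2 log2 units were called, with 3 false calls of 100.

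The members, role lists and rule for named genes were chosen with earlier results of these data known. The rule names up to 8 rises and 8 falls past the test among members with a line mean of at least 5 FPKM, of which there were 3 and 1, the 5 most abundant, up to 2 rises and 2 falls per list or else its most abundant member, and genes at the edges. Other genes named, such as LRRN4CL and FOLR3, which passed the test at lower levels, AHNAK, MAP4K2, STARD10, PPP1R14B and the neighbours of called genes, were chosen after their values were seen. Alternatives covered the pseudocount, filter, scaling, prior, transcript choice, replicate block, GC and length correction, bin width and each library left out.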

Additional observations from a re-analysis of the deposited data

How the results depend on the processing

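As deposited 5 members were higher and 3 lower in 2B-NNK, 8 in all. The higher count was 3 with a pseudocount of 0.1 or after quantile normalization, and 2 after the GC and length correction, when 10 were lower. With at least 5 FPKM in at least 3 libraries 2 were higher and 0 lower, 2 in all, with 14 higher and 11 lower at an unadjusted p under 0.05, while calls over all genes were 240, against 530 as deposited. With the most abundant transcript per gene 1 was higher and 0 lower, 1 in all, with 21 and 10 at an unadjusted p and 179 calls over all genes. Leaving out 1 library gave 0 to 3 higher and 0 lower, 0 to 3 in all, with 22 to 48 members at an unadjusted p under 0.05 and 28 to 227 calls over all genes (limma). No paired design is stated. Same-numbered libraries of the lines had deviations correlated at 0.31, 0.07 and 0.07, and not every library correlated best with its own number. With a replicate block 1 was higher, TMEM138, and 0 lower, 1 in all, with 144 calls over all genes and an adjusted p of 0.0514 for UCP2. With the block and the GC and length correction 0 were higher and 1 lower, 1 in all, with 53 calls over all genes.

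The median of the window, 0.03, was -0.23 after the GC and length correction, with or without the block, -0.05 after quantile normalization, -0.068 when library medians were equalised, and 0.002 to 0.139 without 1 library. That of the rest of chromosome 11, -0.05, was -0.14 when library medians were equalised, -0.15 after quantile normalization, -0.15 after the correction, with or without the block, and -0.107 to 0.024 without 1 library. Window minus rest, 0.075, was -0.087 after the correction, with or without the block, and 0.038 to 0.246 without 1 library. Bins of 1 Mb with at least 10 genes, 8 in number, had medians of -0.12 to 0.20. The cause was not tested.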
